A study of Mus musculus with 30 samples.

Results

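The 37 genes of the mouse mitochondrial genome were followed across 30 RNA-seq libraries of the nucleus accumbens. They are the rows of the deposited count table whose Ensembl identifier has a symbol starting with mt-, 37 of 55401 gene identifiers. Of them, 13 encode proteins, 2 encode ribosomal RNAs (rRNAs) and 22 encode transfer RNAs (tRNAs). Filtering on low counts left 36 members among the 23736 genes tested. The tRNA gene for lysine, mt-Tk, was not tested, with 109 counts over all libraries and 0 to 8 in a single one.

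Each library was made from bilateral accumbens punches of 1 male C57Bl/6J mouse, with RNA described as polyA RNA and a stranded mRNA kit. Mice had sham surgery or the nerve surgery that the labels call Tibial SNI, which serves as a model of neuropathic pain in this series. Surgery carries the note 4 weeks in the labels, which do not say what that time counts, and 3 weeks of 2 intraperitoneal injections a day came after it. The injections held saline, tianeptine at 30 mg/kg or desipramine at 15 mg/kg. Tianeptine, an antidepressant of unusual class, acts on mu opioid receptors. Desipramine, a tricyclic antidepressant, mainly inhibits the noradrenaline transporter. The 6 groups were sham saline (n = 5), sham tianeptine (n = 6), sham desipramine (n = 4), SNI saline (n = 5), SNI tianeptine (n = 6) and SNI desipramine (n = 4). No genotype other than the strain is given, and every mouse was injected, so an uninjected state is not among the groups.

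Mitochondrial DNA is a small circle transcribed from both strands as long precursors. The precursors are cut at the tRNAs that sit between the other genes, which frees messenger RNAs for subunits of respiratory complexes I, III, IV and V and the 2 rRNAs of the mitochondrial ribosome. All other proteins of the respiratory chain, and those that copy, transcribe, process and translate the mitochondrial genome, come from nuclear genes. In neurons this system supplies much of the ATP that pays for ion pumping and synaptic transmission.

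The libraries fall into 2 sets by depth, although no label names a batch. The first set holds replicates 1 to 4 of every group, 24 libraries with totals of 24.5 M to 37.7 M counts. The second set holds the other 6 libraries, of 98.0 M to 120.7 M, with 1 to 2 per saline and tianeptine group and none on desipramine. Medium spiny neurons make up most neurons of this region, and their markers were all detected (18 of 18), with a summed level of 6662 to 13512 counts per M counts (CPM) outside the SNI desipramine group. Inside that group the sum was 7915, 1931, 5565 and 12083 CPM in replicates 1 to 4. The summed level of 19 markers of septal, preoptic and hypothalamic neurons was 323, 498, 424 and 200 CPM in the same libraries, against 144 to 487 elsewhere. Sham saline replicate 2 stood apart in its mitochondrial counts, so results that rest on it are given with and without it. Fewer cells of a type and less RNA per cell cannot be told apart in such bulk samples.

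The members sit one after another on the mitochondrial chromosome, and a long stretch of it has a near-identical copy on chromosome 1. Against GENCODE M21 transcripts on the mouse build mm10, the stretch chrM:6381-11042 lines up with 7 gene models at chr1:24611535-24616197 on the minus strand. Over the 4662 bases of the stretch, 11 members lie inside it, and mt-Co1 and mt-Nd4 lie partly inside. The 5 models that match mt-Co2, mt-Atp6, mt-Co3, mt-Nd4l and the 5′ part of mt-Nd4 had 0 mismatches over 681, 678, 783, 294 and 876 bases. The model Gm28438, which matches mt-Nd3, differed at 1 base in 345, and Gm29216, which matches the 3′ part of mt-Co1, at 6 bases in 492. Positions are counted from 1 at the first base of mt-Nd3 and mt-Co1, and the substitutions were T3C in the first pair and T1056A, C1057T, A1059G, A1060G, C1062A and A1066T in the second. The first 30 bases of these 2 models are shown beside the mitochondrial sequence because they hold every base by which the chromosome 1 models differ from it. Capitals mark the differing bases, and each sequence is read 5′ to 3′ along the transcript, from GENCODE M21 on mm10.
mt-Co1 at chrM:6381-6410, plus strand: ggTCtAAcCggaAttgttttatccaactca
Gm29216 at chr1:24616168-24616197, minus strand: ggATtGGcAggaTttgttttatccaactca
mt-Nd3 at chrM:9459-9488, plus strand: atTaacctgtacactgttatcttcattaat
Gm28438 at chr1:24613090-24613119, minus strand: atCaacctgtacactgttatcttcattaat

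Windows of 50 bases were used to ask how much of each member is shared with another annotated transcript. Every such window of mt-Co2 was shared (100%), as were 99.5% of those of mt-Atp6, 99.9% of mt-Co3, 98.0% of mt-Nd3 and 98.8% of mt-Nd4l. The share was 62.2% in mt-Nd4, 51.1% in mt-Co1, 8.19% in mt-Nd2 and 7.61% in mt-Nd5. It was 0% in mt-Nd1, mt-Nd6, mt-Cytb, mt-Atp8, both rRNA genes and all tRNA genes. How reads with more than 1 matching place were counted is not given in the sources used here, so values of the members with shared windows are uncertain. Only annotated transcripts were compared, so values of members inside the stretch with 0% shared windows are uncertain too.

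Levels per length followed this map. As deposited fragments per kilobase and per M fragments (FPKM), averaged over 30 libraries, mt-Cytb of complex III was at 2291, mt-Co1 of complex IV at 2192 and mt-Nd1 of complex I at 1933. Next came the complex I genes mt-Nd2 at 1355, mt-Nd5 at 1112, mt-Nd6 at 1111 and mt-Nd4 at 930 FPKM. The 6 protein genes inside the copied stretch were far lower, at 67.0 (mt-Co2), 54.7 (mt-Atp6), 51.0 (mt-Atp8), 45.9 (mt-Co3), 31.7 (mt-Nd4l) and 25.6 FPKM (mt-Nd3). The median of these 6 was 48.5 FPKM, and that of the 5 protein genes wholly outside the stretch was 1355. Of the 6 low genes, mt-Atp8 is the one that shares none of its 50-base windows with another annotated transcript. Chromosome 1 sequence between the gene models was not compared, so this does not show that mt-Atp8 lacks a copy there. The part of the copy in these levels was not tested.

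The chromosome 1 models had counts of their own. Gm10925, the match of mt-Atp6, was at 62.4 FPKM, Gm28437, the match of mt-Co3, at 43.2, and Gm28661, the match of mt-Co2, at 40.1. Gm29216 stood at 65.5, Gm28439 at 30.9, Gm10222 at 27.8 and Gm28438 at 11 FPKM. For the 5 gene pairs other than mt-Co1 and mt-Nd4, these levels are of the same order as those of the mitochondrial partners.

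**Figure D1:**
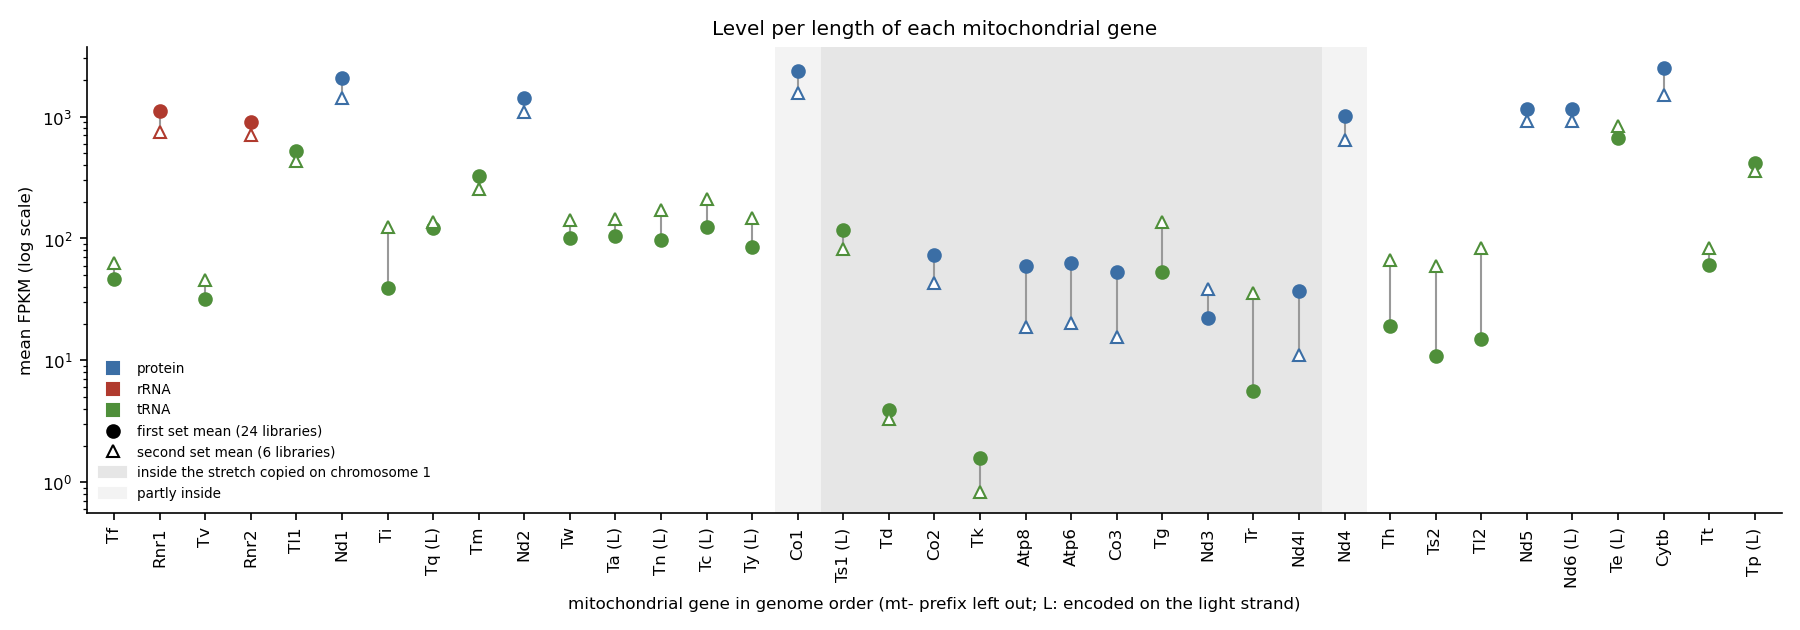
Mean FPKM on a log axis for each of the 37 mitochondrial genes in genome order, with filled circles for the 24 libraries of the first set and open triangles for the 6 of the second; grey shading marks genes inside (dark) or partly inside (light) the stretch copied on chromosome 1. The 6 protein genes in dark shading average 25.6 to 67.0 FPKM over all libraries, the 2 in light shading 930 (mt-Nd4) and 2192 (mt-Co1), and the 5 unshaded ones 1111 to 2291.

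The rRNA genes, which form the core of the small and the large mitochondrial ribosomal subunit, averaged 1034 FPKM for mt-Rnr1 and 866 for mt-Rnr2. The libraries were made from polyA RNA, and how fully each class of RNA was captured was not tested. The 22 tRNA genes ran from 1.43 FPKM (mt-Tk) to 706 (mt-Te, for glutamate), with mt-Tl1 for leucine at 503, mt-Tp for proline at 405 and mt-Tm for methionine at 312. The 5 tRNA genes inside the copied stretch had a median of 11.6 FPKM and the 17 outside it a median of 110. Whether counts on a tRNA gene come from the mature tRNA, an uncut precursor or an adjoining gene was not tested. The annotated overlaps reach 43 bases for mt-Atp8 with mt-Atp6 and 14 bases for mt-Nd5 with mt-Nd6 on the other strand. The strand setting of the counting is not given in the sources used here, so members that overlap on opposite strands are uncertain.

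Complex I genes gave the largest share of the mitochondrial counts. Over all libraries the 7 complex I genes gave 45.6% of the counts of the 37 members, the 3 complex IV genes 21.6%, mt-Cytb alone 15.9%, the rRNA genes 15.0%, the tRNA genes 1.57% and the 2 complex V genes 0.259%. Of the genes read from the light strand, the 8 tRNA genes gave 57.4% of the tRNA gene counts, and mt-Nd6 is the only protein gene.

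All members together took 1.45% of all counts. In the first set the share was 1.69% ± 0.208 (SD, n = 24) and in the second 1.18% ± 0.0557 (SD, n = 6), and every library of the second set lay between 1.10% and 1.26%. Counting error is small beside this spread, since the exact 95% binomial interval of a library's share is at most 0.373% of the share to either side, and intervals cover counting error only. Group means over all libraries were 1.48% ± 0.405 (SD, n = 5) in sham saline, 1.496% ± 0.295 (SD, n = 6) in sham tianeptine and 1.64% ± 0.156 (SD, n = 4) in sham desipramine. In SNI mice they were 1.60% ± 0.218 (SD, n = 5) on saline, 1.56% ± 0.315 (SD, n = 6) on tianeptine and 1.84% ± 0.102 (SD, n = 4) on desipramine. The desipramine groups lack the low second set, so the fairer set of means is that of the first set alone. There the share was 1.58% in sham saline, 1.65% in sham tianeptine, 1.64% in sham desipramine, 1.68% in SNI saline, 1.75% in SNI tianeptine and 1.84% in SNI desipramine. Sham saline replicate 2 decided the place of its group: without it the first-set mean of sham saline was 1.78% (n = 3), above every group but SNI desipramine instead of below all. The ranges of all 6 groups overlapped. No p-value is given for such sums.

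**Figure D2:**
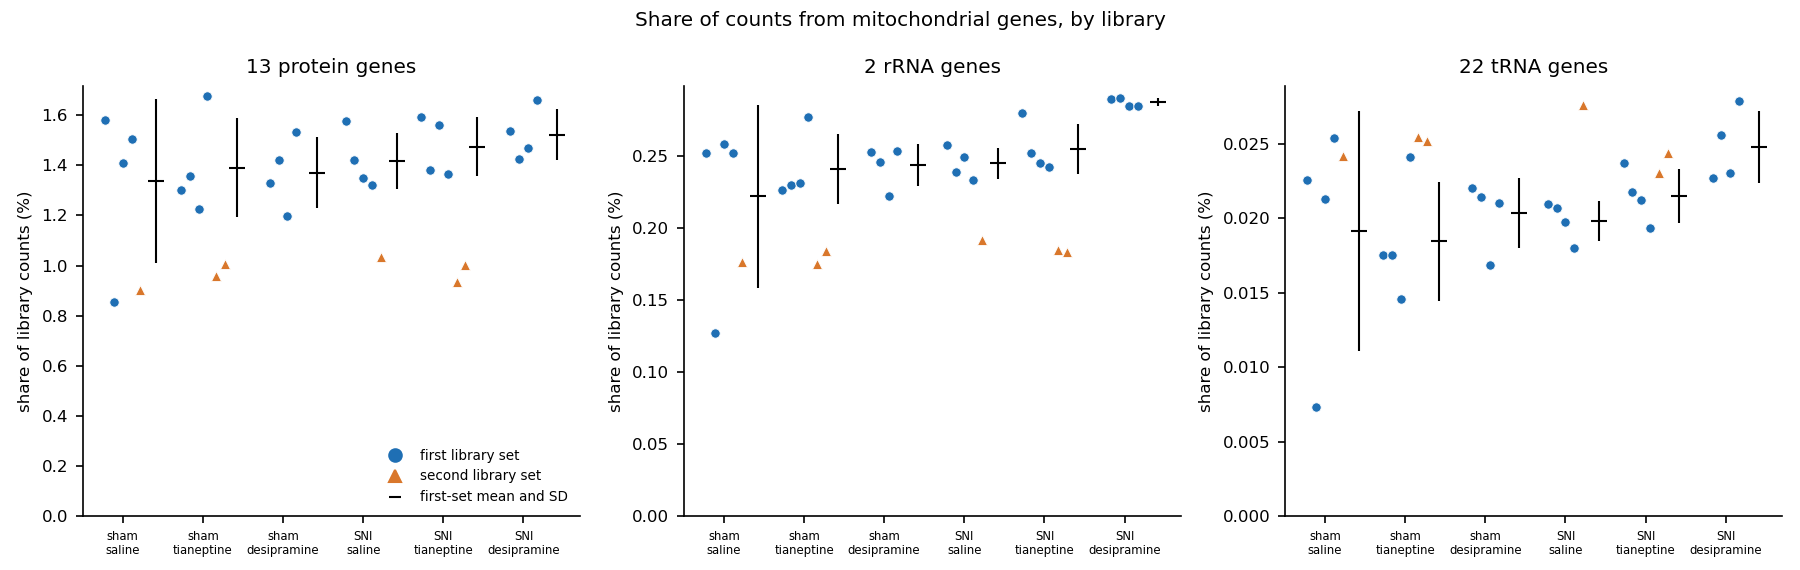
Share of library counts (%) from the protein, rRNA and tRNA genes in each library by group; circles are the first library set, triangles the second, and black bars the first-set mean and SD. The rRNA share of the 4 SNI desipramine libraries lies at 0.285% to 0.290%, above every other library.

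As a share of library counts, the rRNA genes were the one class in which a treatment group stood clear, and on CPM scaled between libraries for composition (TMM factors), as in the tests, they overlapped. In SNI desipramine it was 0.288% ± 0.00296 (SD, n = 4), with all 4 libraries between 0.285% and 0.290%. It was 0.234% ± 0.0254 (SD, n = 5) in SNI saline, 0.245% ± 0.0108 in the first set of that group, and 0.244% ± 0.0146 (SD, n = 4) in sham desipramine. No library of another group reached 0.285%, the highest being 0.280% in SNI tianeptine. In CPM the summed rRNA level of SNI desipramine was 2815 to 2930, and SNI tianeptine replicate 1 at 2846 and sham tianeptine replicate 4 at 2834 lay within that range. The tRNA share in SNI desipramine was 0.0248% ± 0.00241 (SD, n = 4) against 0.0198% ± 0.00134 in the 4 first-set libraries of SNI saline, and the protein gene share 1.52% ± 0.102 against 1.42% ± 0.113.

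1 library has to be set apart before the groups are compared. Sham saline replicate 2 had less of nearly every mitochondrial RNA than the other 23 libraries of the first set. Of the 36 tested members, 35 were below all 23, the exception being mt-Ts2, and the median member stood at 40.9% of the others' median. Protein genes of the heavy-strand transcript were at a median of 58.2%, mt-Nd6 at 36.0%, rRNA genes at 51.4% and tRNA genes of the 2 strands at 31.8% and 32.0%. Single members ranged from 74.2% of the others' median in mt-Ts1 to 5.22% in mt-Tp.

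The tRNA gene for proline, mt-Tp, had 42 counts there, or 1.53 CPM, against 25.2 to 34.7 CPM in the others. The complex IV gene mt-Co1 stood at 2489 CPM against 3175 to 4275. The exact 95% binomial interval of this library's tRNA share of 0.00732% is 0.00701% to 0.00765%. The tRNA gene with the highest level per length, mt-Te, stood at 14.6 CPM against 26.1 to 68.2. The sequences of mt-Tp and mt-Te are shown because of the light-strand tRNA genes looked at (mt-Te, mt-Tp and mt-Tc) they are the 2 in which this library fell past Dixon's limit for an outlier in its group. By percentage of the others' median mt-Tp was the lowest member, while mt-Te, at 30.2%, was not among the lowest. Both are given 5′ to 3′ along the transcript, from GENCODE M21 on mm10.
mt-Tp at chrM:15356-15422, minus strand: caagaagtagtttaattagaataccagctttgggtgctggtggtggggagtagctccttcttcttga
mt-Te at chrM:14071-14139, minus strand: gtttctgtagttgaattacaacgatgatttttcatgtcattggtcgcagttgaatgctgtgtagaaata

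The first question was whether the nerve surgery alone, on saline, changed mitochondrial transcripts. No member passed an adjusted p under 0.05 by edgeR's quasi-likelihood test, and 0% of all 23736 genes did. At an unadjusted p under 0.05 the count was 0 of 36 by edgeR, DESeq2 and limma-voom alike, against 9.74% of all genes by edgeR. The median log2 fold change of the members was 0.01, with 19 of 36 above 0, beside 50.6% of all genes.

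For mt-Rnr2, SNI saline libraries read 1432, 1341, 1385, 1297 and 1189 CPM, and sham saline libraries 1500, 717, 1421, 1475 and 1078 CPM. The lowest value belongs to sham saline replicate 2, and the groups overlapped with or without it. The fitted log2 fold change was 0.10 ± 0.12 (SE), with an adjusted p of 0.83.

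Without sham saline replicate 2 the median of the members turned to -0.16, with 3 of 36 above 0, so the direction of this comparison rests on that library. The ratio of the summed CPM of the 13 mitochondrial protein genes to that of 79 nuclear gene identifiers for respiratory subunits was 1.61 in both saline groups, with an SD of 0.469 over the 5 sham libraries and of 0.0773 over the 5 SNI libraries. It was 0.912 in sham saline replicate 2, where the mitochondrial sum was 8621 CPM and the nuclear sum 9453 CPM. That nuclear sum was the highest of all libraries.

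Tianeptine left no member past the threshold either. In sham mice 0 of 36 members passed an adjusted p under 0.05 by edgeR (0% of all genes), and 0 passed an unadjusted p under 0.05, against 6.84% of all genes. DESeq2 and limma-voom gave 1 member each at the unadjusted threshold. In SNI mice the counts were 0 of 36 by edgeR, adjusted (0% of all genes) and unadjusted (2.87% of all genes), and 0 unadjusted by both other tools. The median log2 fold change of the members was -0.01 in sham and 0.05 in SNI mice, with 16 and 28 of 36 above 0, beside 50.9% and 51.2% of all genes. Without sham saline replicate 2 the sham median was -0.17, with 1 of 36 above 0.

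In the first set alone, 6 tRNA genes were higher in all 4 SNI tianeptine libraries than in all 4 SNI saline libraries, mt-Tf, mt-Ta, mt-Tn, mt-Tc, mt-Ty and mt-Ts1, beside 2.17% of all genes. For mt-Tc, the tRNA gene for cysteine, the 6 SNI tianeptine libraries ran from 7.95 to 13.5 CPM with a median of 11.7, and the SNI saline libraries read 7.71, 5.72, 6.76, 4.58 and 15.5 CPM. The groups overlap only through SNI saline replicate 5, a library of the second set. The fitted difference was 0.46 ± 0.32 (SE), with an adjusted p of 0.9999 by edgeR.

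The comparison of SNI with sham on tianeptine called 0 of 36 members by edgeR (0% of all genes), with 0 at the unadjusted threshold by edgeR (1.21% of all genes), DESeq2 and limma-voom. Its median was 0.10, with 34 of 36 above 0, beside 50.6% of all genes.

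The SNI desipramine group had the highest mean mitochondrial share of the 6 groups, but no single gene differed past the threshold across all genes. Against saline in SNI mice, 0 of 36 members passed an adjusted p under 0.05 by edgeR, as did 0% of all genes. The log2 fold change was above 0 in 36 of 36 members, beside 51% of all genes. Members can move together within a library, as in sham saline replicate 2, so such counts are not counts of independent genes. At an unadjusted p under 0.05 the count was 10 of 36, all higher (1 rRNA gene and 9 tRNA genes), against 17.5% of all genes, or 10.7% that were higher. DESeq2 gave 11 and limma-voom 8. That count was 19 without sham saline replicate 2, 1 without a term for the library set, 6, 4 and 4 without SNI saline replicates 2, 3 and 4, and 6 and 3 without SNI desipramine replicates 2 and 4. The median was 0.29 over the members, 0.15 over protein genes, 0.23 over rRNA genes and 0.51 over tRNA genes, beside 0.01 over all genes.

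In the sham groups the same drug gave a median of 0.08, with 25 of 36 members above 0 (46.6% of all genes). There 0 members passed by edgeR, adjusted (0% of all genes) or unadjusted (7.63% of all genes), and 0 unadjusted by the other tools. That median was -0.10 without sham saline replicate 2.

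**Figure D3:**
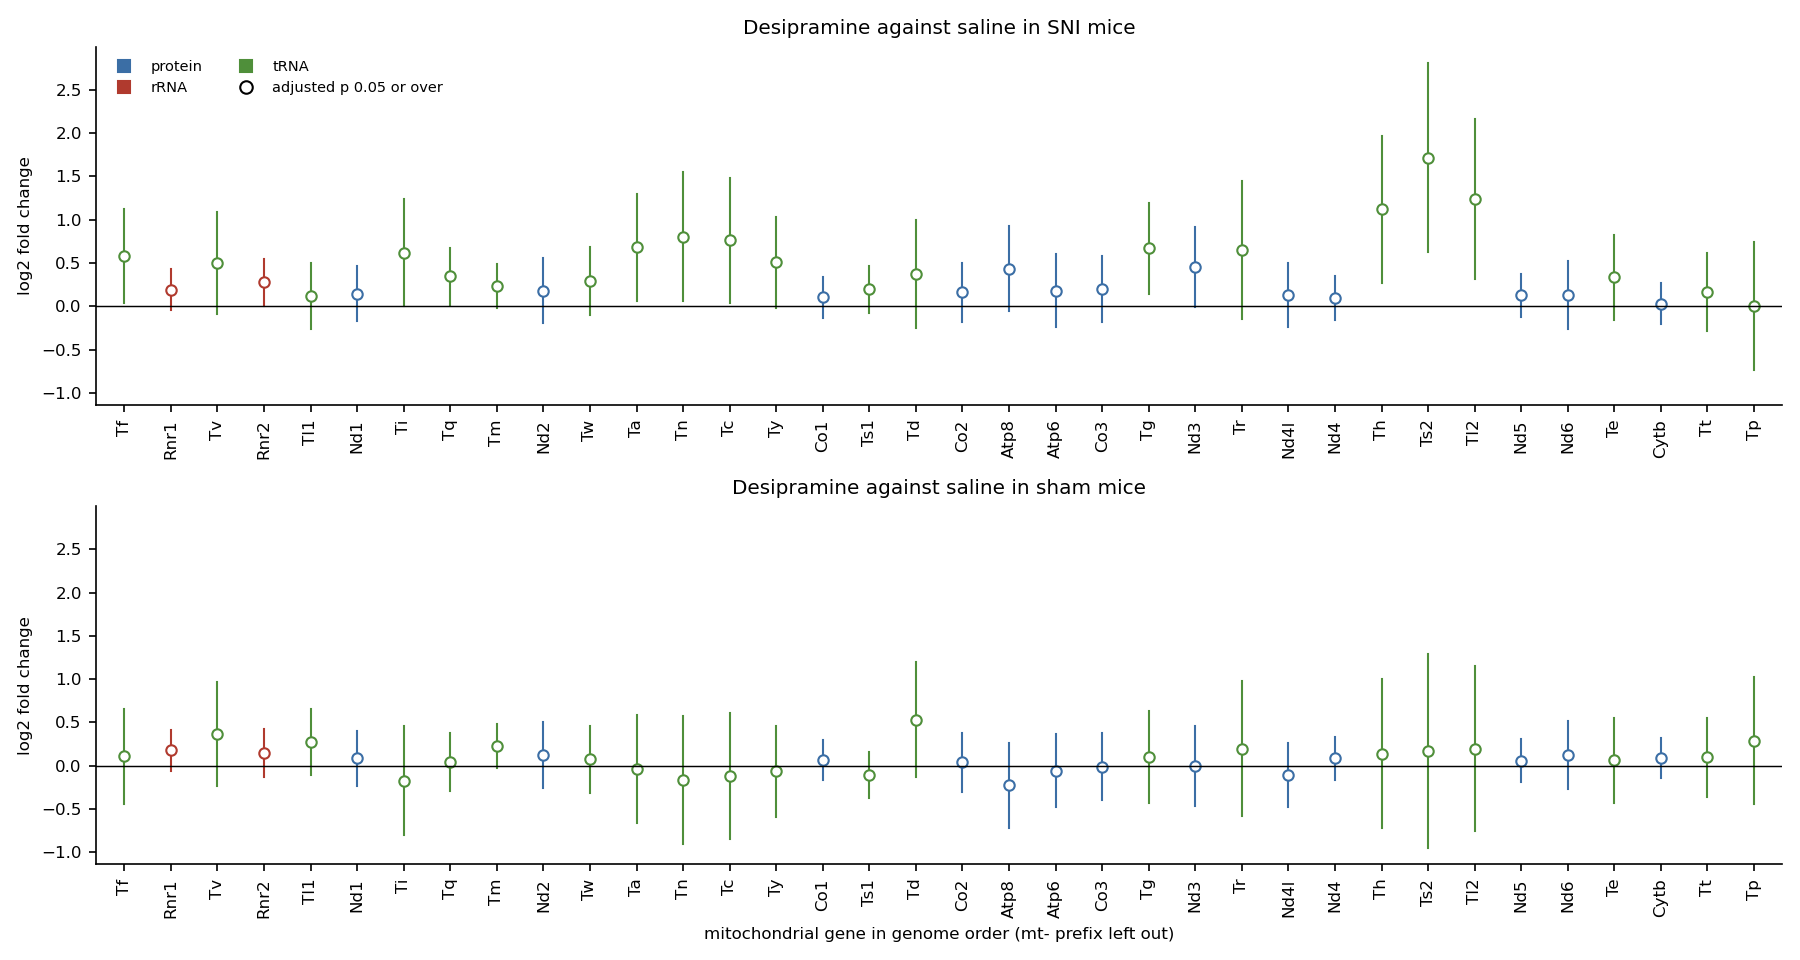
Log2 fold change of desipramine against saline for the 36 tested members in genome order, in SNI mice (top) and sham mice (bottom); points are edgeR estimates, lines 95% confidence intervals, and colours the class. Every point in the top panel is above 0, and all points are open because no adjusted p is under 0.05.

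The rRNA genes separated SNI desipramine from its 2 comparison groups by library, though by a modest amount, and not from the tianeptine groups. For mt-Rnr2 (ENSMUSG00000064339.1, chrM:1094-2675), the large-subunit rRNA, the 4 SNI desipramine libraries read 1674, 1661, 1640 and 1739 CPM. The SNI saline libraries read 1432, 1341, 1385, 1297 and 1189 CPM, and the sham desipramine libraries 1515, 1420, 1279 and 1496 CPM. All 4 SNI desipramine libraries were above every library of both comparison groups, and the lowest SNI saline value is from the second set. On tianeptine, however, SNI replicate 1 read 1684 CPM, above 3 of the 4, and sham replicate 4 read 1643 CPM, above 1.

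The log2 fold change against SNI saline was 0.28 ± 0.13 (SE; 95% confidence interval 0.00 to 0.55), with an unadjusted p of 0.048 and an adjusted p of 0.28 by edgeR. Against sham desipramine it was 0.23 ± 0.14 (SE), with an adjusted p of 0.28.

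For mt-Rnr1 (ENSMUSG00000064337.1, chrM:70-1024), the small-subunit rRNA, the SNI desipramine libraries read 1215, 1178, 1175 and 1191 CPM. The SNI saline libraries read 1097, 1038, 1029, 964 and 741 CPM. Sham tianeptine replicate 4 read 1191 CPM, above 2 of the 4 SNI desipramine libraries. The SNI desipramine and SNI saline groups did not overlap, and the log2 fold change was 0.19 ± 0.12 (SE), with an adjusted p of 0.40.

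**Figure D4:**
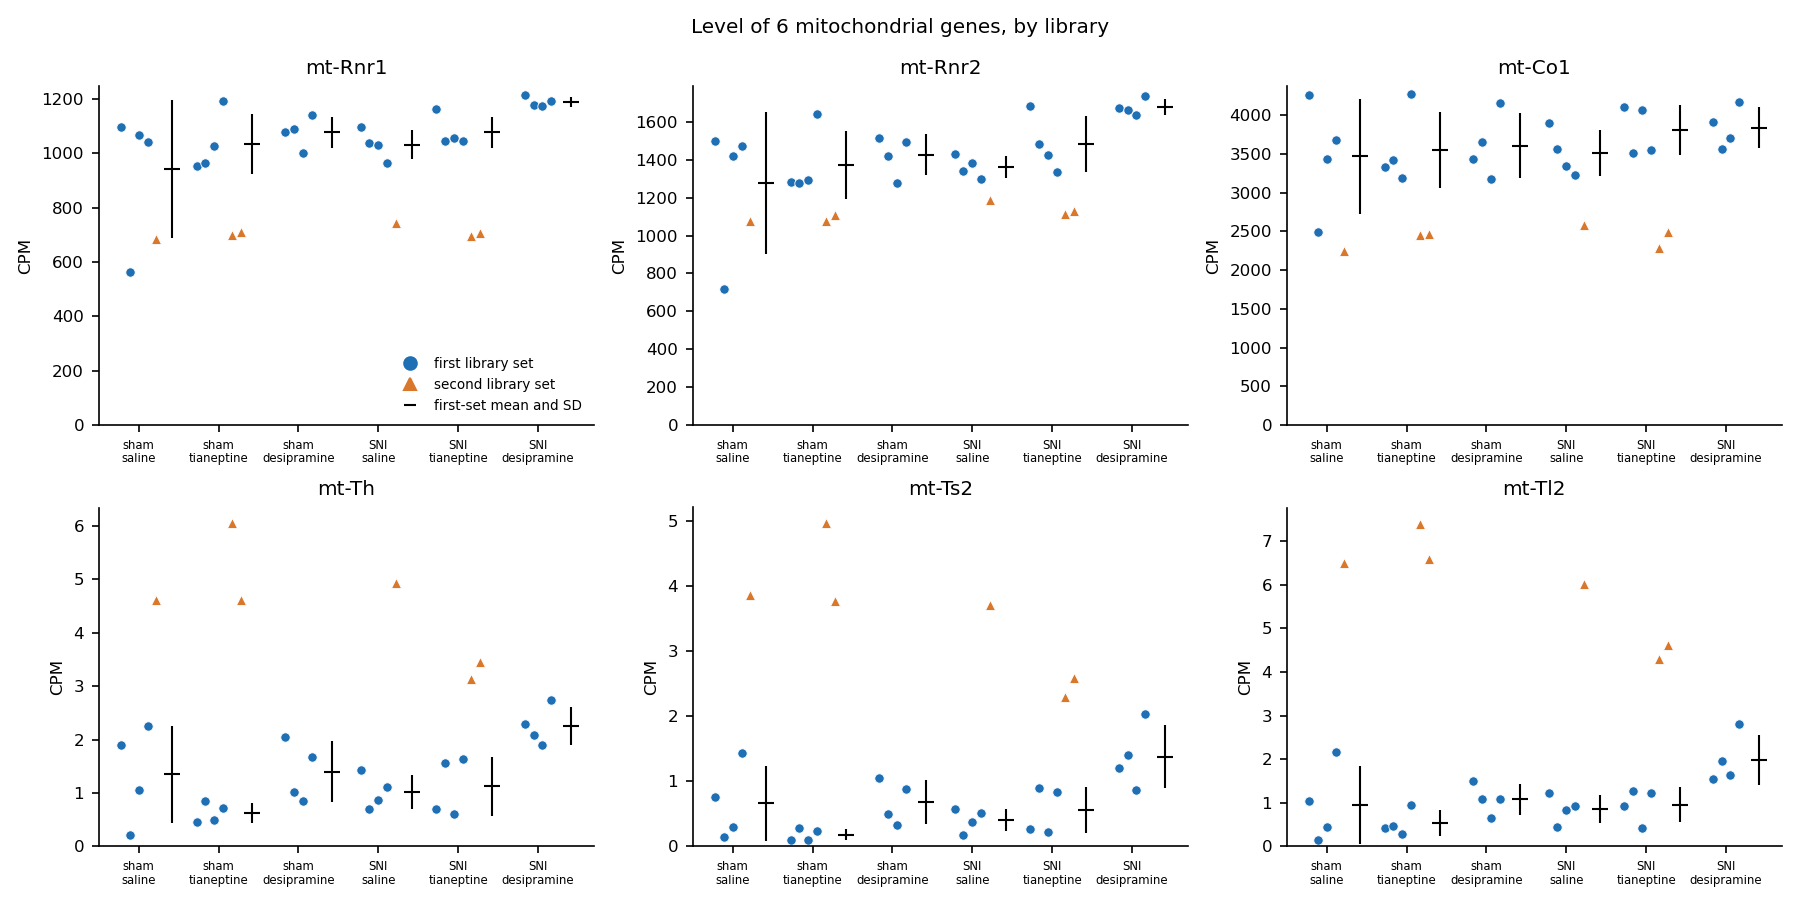
Level (CPM) of mt-Rnr1, mt-Rnr2, mt-Co1, mt-Th, mt-Ts2 and mt-Tl2 in each library by group; circles are the first library set, triangles the second, and black bars the first-set mean and SD. For mt-Rnr2 the 4 SNI desipramine libraries read 1640 to 1739 CPM, above all SNI saline libraries, and for the 3 tRNA genes every triangle lies above every circle of its own group.

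The members with the largest fitted differences were 3 neighbouring tRNA genes between mt-Nd4 and mt-Nd5. These are mt-Th for histidine, mt-Ts2 for serine and mt-Tl2 for leucine, a run without any other gene between them. They are shown because they carry the highest estimates of the comparison, and the capital A marks the 1 base, at chrM:11671-11671, that the annotation gives to both mt-Ts2 and mt-Tl2. Each is on the plus strand, from GENCODE M21 on mm10.
mt-Th at chrM:11546-11612: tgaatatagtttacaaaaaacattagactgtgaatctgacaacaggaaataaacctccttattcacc
mt-Ts2 at chrM:11613-11671: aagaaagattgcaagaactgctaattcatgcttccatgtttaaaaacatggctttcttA
mt-Tl2 at chrM:11671-11741: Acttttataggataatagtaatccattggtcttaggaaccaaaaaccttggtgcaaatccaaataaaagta

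For mt-Ts2 the SNI desipramine libraries read 1.20, 1.41, 0.874 and 2.03 CPM, from 24 to 55 counts. The SNI saline libraries of the first set read 0.571, 0.180, 0.369 and 0.513 CPM, from 6 to 17 counts, and replicate 5, of the second set, read 3.70 CPM. Within the first set the groups did not overlap, and the second-set library was higher than all of them. The log2 fold change was 1.72 ± 0.53 (SE), with an unadjusted p of 0.0033 and an adjusted p of 0.12 by edgeR.

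For mt-Tl2 the SNI desipramine libraries read 1.55, 1.96, 1.64 and 2.81 CPM, and the SNI saline libraries 1.21, 0.451, 0.8292, 0.935 and 6.01 CPM. For mt-Th they read 2.29, 2.09, 1.89 and 2.74 CPM, against 1.43, 0.692, 0.860, 1.12 and 4.93 CPM. In both genes the desipramine libraries were above the 4 first-set saline libraries and below the second-set one. The log2 fold changes were 1.24 ± 0.45 and 1.12 ± 0.41 (SE), with adjusted p of 0.16 and 0.17.

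These estimates rest on the term for the library set: without it they were 0.26 for mt-Ts2, 0.01 for mt-Tl2 and 0.26 for mt-Th, and with the first set alone 1.75, 1.21 and 1.13.

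Other tRNA genes that passed the unadjusted threshold differed by less. The glycine tRNA gene mt-Tg read 4.35, 4.60, 4.48 and 6.84 CPM in SNI desipramine and 3.32, 2.62, 3.50, 3.20 and 9.50 CPM in SNI saline. Its log2 fold change was 0.67 ± 0.25 (SE), with an adjusted p of 0.18, and replicate 4 was the highest desipramine library. The remaining 5, mt-Ta, mt-Tn, mt-Tf, mt-Tc and mt-Tq, differed by 0.34 to 0.81 on the log2 scale, with adjusted p of 0.24 to 0.27. In the first set alone, 17 of 36 members were higher in all 4 SNI desipramine than in all 4 SNI saline libraries, 14 tRNA genes, both rRNA genes and mt-Nd3, beside 3.52% of all genes. Over all libraries it was 4 of 36, mt-Rnr1, mt-Rnr2, mt-Tm and mt-Ts1, beside 1.02%.

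Protein genes differed little between SNI desipramine and SNI saline. The catalytic complex IV subunit mt-Co1 read 3914, 3570, 3705 and 4171 CPM on desipramine and 3903, 3566, 3348, 3231 and 2576 CPM on saline. The groups overlapped, and the log2 fold change was 0.10, with a 95% confidence interval of -0.13 to 0.34 and an adjusted p of 0.67. For mt-Cytb, the cytochrome b of complex III, it was 0.03, with an interval of -0.20 to 0.27 and an adjusted p of 0.92.

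The largest estimate among protein genes was that of mt-Nd3, a small complex I subunit, at 0.45 ± 0.22 (SE), with an adjusted p of 0.29. It read 9.44, 8.68, 9.36 and 11.8 CPM on desipramine and 7.57, 6.38, 7.12, 7.18 and 13.5 CPM on saline, where the second-set library is again the highest. Of the 50-base windows of mt-Nd3, 98.0% are shared with the chromosome 1 model Gm28438.

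Whether desipramine acted differently in SNI and sham mice was asked with the interaction term. By edgeR 0 of 36 members passed the adjusted threshold (0% of all genes) and 1 the unadjusted one, mt-Ts2, beside 12.3% of all genes. DESeq2 gave 1 and limma-voom 0. The interaction for mt-Ts2 was 1.54 ± 0.75 (SE), with an unadjusted p of 0.0495 and an adjusted p of 0.41, and that of mt-Rnr2 was 0.13 with an adjusted p of 0.83. Without sham saline replicate 2, 17 members passed the unadjusted threshold and the median interaction was 0.39, and 0 passed the adjusted one. The interaction of tianeptine and SNI likewise called 0 members (0% of all genes) by edgeR, with 1 member at the unadjusted threshold, beside 4.2% of all genes, and 0 by DESeq2 and limma-voom. Without sham saline replicate 2 the unadjusted count was 5.

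Averaged over both surgeries, desipramine against saline called 0 of 36 members by edgeR, where 0.0295% of all genes were called. At the unadjusted threshold 8 were higher, both rRNA genes and 6 tRNA genes, beside 7.16% of all genes, and DESeq2 gave 8 and limma-voom 9. Over single left-out libraries that count ran from 1, without SNI desipramine replicate 4, to 10. The mean of tianeptine over both surgeries called 0 (0% of all genes), and 0 unadjusted by all 3 tools (4.74% of all genes by edgeR).

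SNI against sham on desipramine had the most calls of the surgery contrasts, 2681 genes or 11.3% of all genes by edgeR, and 0 of 36 members were among them. The number of genes called was 0 without SNI desipramine replicate 2, 612 without replicate 3 and 5908 without replicate 4. It was 1561 and 1344 without sham desipramine replicates 1 and 3. At an unadjusted p under 0.05 the count was 0 by edgeR, DESeq2 and limma-voom, beside 27.6% of all genes by edgeR. Without sham saline replicate 2 it was 10 by edgeR, and without sham desipramine replicate 1 it was 7. The median of the members was 0.24, with 36 of 36 above 0 (51% of all genes), and 0.16, 0.19 and 0.34 over protein, rRNA and tRNA genes.

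5 members, mt-Rnr1, mt-Rnr2, mt-Nd3, mt-Tl2 and mt-Te, did not overlap between the groups, all higher in SNI, beside 5.49% of all genes. The mean of SNI against sham over the 3 treatments called 0 of 36 members, where 1.84% of all genes were called (0 to 3757 genes over single left-out libraries), with 0 unadjusted by edgeR and DESeq2 and 1 by limma-voom (22.6% of all genes by edgeR).

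When sham saline replicate 2 was left out of the fit, mt-Rnr2 passed the threshold in SNI against sham on desipramine. Its log2 fold change stayed at 0.23, since that library is in neither group, and its adjusted p became 0.049. In these fits all libraries share the estimate of spread of each gene, so a library outside both groups can change a p-value. No other member passed, and none passed in any other surgery or drug comparison under any setting tried.

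The SNI desipramine libraries also differed in other markers. Replicate 4 had the highest medium spiny neuron sum (12083 CPM) and the lowest septal, preoptic and hypothalamic sum (200 CPM). It had the highest mt-Rnr2, mt-Co1, mt-Cytb, mt-Ts2, mt-Tl2, mt-Th and mt-Tg of its group, but not the highest level of every member. The level of mt-Rnr1 was highest in replicate 1, at 1215 CPM against 1191 in replicate 4. The rRNA share was highest in replicate 2, where the medium spiny neuron sum was lowest, at 0.290% against 0.285% in replicate 4. The sum of nuclear long noncoding RNAs used as a sign of RNA quality was 11057 ± 650 CPM in SNI desipramine, against 9832 ± 1123 in SNI saline and 9350 ± 1010 in sham desipramine (SD). Their part in the mitochondrial values was not tested. The level of mt-Rnr2 was 1674, 1661, 1640 and 1739 CPM in replicates 1 to 4, whose medium spiny neuron sums are given above.

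Nuclear genes of the same system were read from lists of respiratory subunits and of proteins acting on mitochondrial DNA and RNA. Against saline in SNI mice, 0 of 79 subunit gene identifiers and 0 of 107 DNA- and RNA-acting genes passed by edgeR. Their medians were -0.03 and -0.01, with 33 and 45 above 0, where all 36 mitochondrial members were above 0. At the unadjusted threshold 2 subunits were higher and 5 lower, and 8 and 10 of the DNA- and RNA-acting genes, beside 10.7% of all genes higher and 6.81% lower.

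In SNI against sham on desipramine, 3 of the 79 subunit identifiers rose and 0 fell, beside 7.22% of all genes higher and 4.08% lower, so the list had a smaller share of calls than all genes. They were Ndufb2 and Ndufb5 of complex I, at 0.21 and 0.17 on the log2 scale, and Sdha of complex II, at 0.22. Of the 107 DNA- and RNA-acting genes 5 rose and 0 fell, again a smaller share than that of all genes. Among them was Tfam, which packages mitochondrial DNA and takes part in its transcription, at 0.22 (adjusted p = 0.036 by edgeR). Lrpprc, which stabilises mitochondrial messenger RNAs, was another, at 0.22 (adjusted p = 0.019 by edgeR). The others were Fastkd1, a mitochondrial RNA-binding protein, at 0.32, the tRNA methyltransferase Trmt2b at 0.80, and the rRNA methyltransferase Nsun4 at 0.21.

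The mitochondrial RNA polymerase Polrmt was at -0.05, the tRNA 3′ processing enzyme Elac2 at -0.08 and the poly(A) polymerase Mtpap at -0.01, none past the threshold. The biogenesis regulator Ppargc1a was at 0.42, with an adjusted p of 0.069. Of 82 mitochondrial ribosomal protein genes, Mrps5 rose by 0.34 and Mrps17 fell by 0.34, and of 25 markers of mitochondrial mass, Slc25a4, Dlat and Idh3b rose by 0.25, 0.24 and 0.20. With 11.3% of all genes called in this comparison in either direction, 2 of 82 is below that background and 3 of 25 is near it. All 3 of these mass markers rose, where 7.22% of all genes were called higher.

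These nuclear calls depend on single libraries. Without SNI desipramine replicate 2, and likewise without replicate 3, both lists had 0 calls. Without replicate 4 each list had 16, and without sham saline replicate 2 they had 5 and 8. The subunit list had 0 or 1 call without any 1 of the sham desipramine libraries, and the other list 2 without replicate 2 or 3 of that group. The ratio of mitochondrial to nuclear subunit CPM was 1.80 ± 0.291 (SD, n = 4) in SNI desipramine, 1.73 ± 0.219 (SD, n = 4) in sham desipramine and 1.63 ± 0.0706 (SD, n = 4) in the first set of SNI saline, with overlapping ranges.

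The contrast that moved mitochondrial genes most was that between the library sets. The second set differed from the first in 30 of 36 members at an adjusted p under 0.05 by edgeR, where 32.3% of all genes were called. Of them, 15 were higher (16.5% of all genes), 14 tRNA genes and mt-Nd3, and 15 were lower (15.8% of all genes), 11 protein genes, both rRNA genes and the tRNA genes mt-Ts1 and mt-Tm. The median was 0.57 over tRNA genes, -0.43 over rRNA genes and -0.62 over protein genes. The set is not a treatment, and the labels do not say what distinguishes its preparation, so depth, library preparation and animals cannot be told apart here.

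The tRNA genes that rose most were mt-Ts2 by 3.05 ± 0.33, mt-Tl2 by 2.88 ± 0.28, mt-Tr for arginine by 2.82 ± 0.21, mt-Th by 2.19, mt-Ti for isoleucine by 1.74 and mt-Tg by 1.53 on the log2 scale. For mt-Ts2 the first set ran from 0.104 to 2.03 CPM and the second from 2.30 to 4.96 CPM, with no overlap.

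The genes that fell most were mt-Co3 by 1.80 ± 0.15, mt-Nd4l by 1.75, mt-Atp6 by 1.65 and mt-Atp8 by 1.62, all inside the stretch copied on chromosome 1. The tRNA genes mt-Tr and mt-Tg, named above among those that rose most, lie inside that stretch too. The models that match mt-Co3 and mt-Atp6 were lower in the second set as well. Gm28437 was at 9.84 FPKM against 51.6 in the first and Gm10925 at 16.8 against 73.7. Models and partners did not always move together. Gm28438 was lower too, at 4.62 FPKM against 12.6, whereas its partner mt-Nd3 was higher, at 38.2 against 22.5. Outside the stretch mt-Cytb fell by 0.74 and mt-Nd5 by 0.31. Leaving out mt-Nd3, every protein gene was thus lower or, for mt-Nd6, not past the threshold (adjusted p = 0.079).

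**Figure D5:**
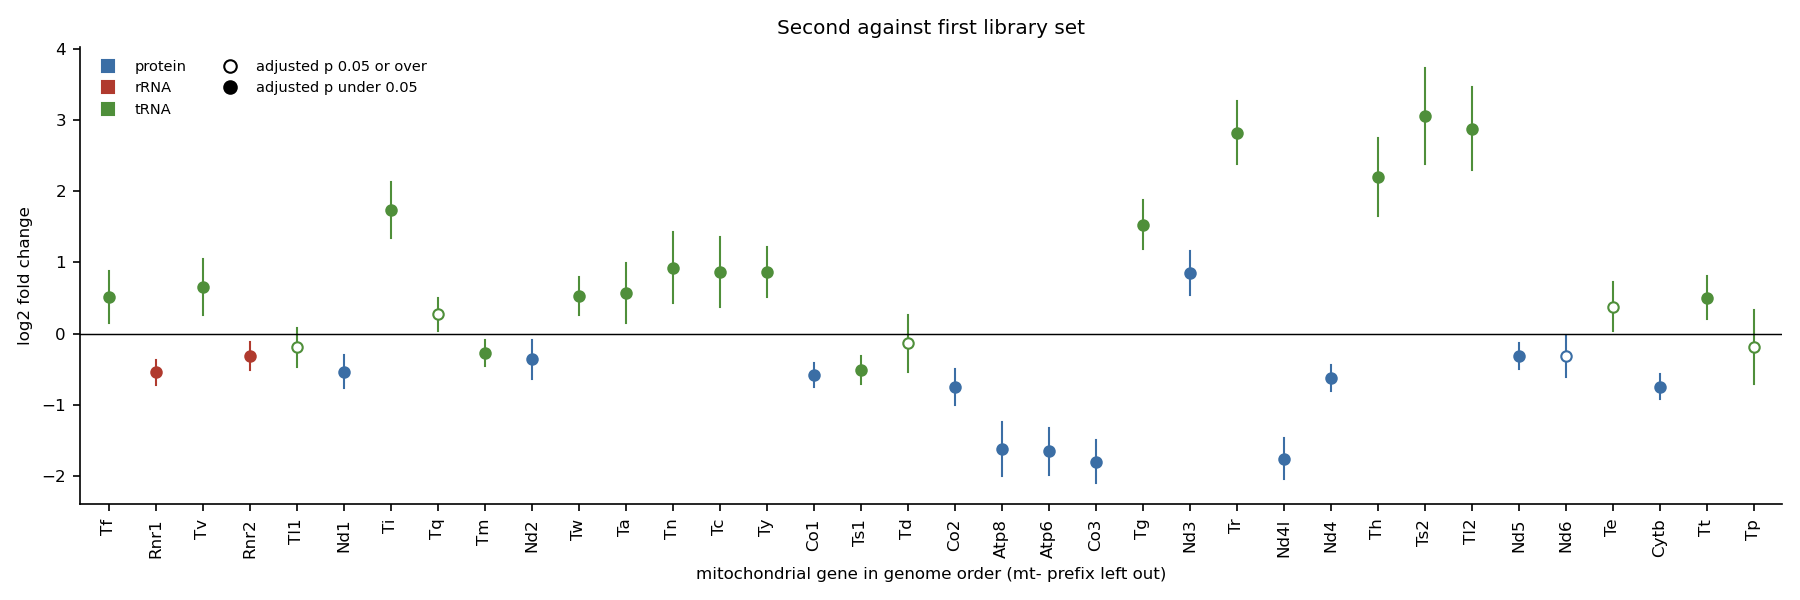
Log2 fold change of the second against the first library set for the 36 tested members in genome order; points are edgeR estimates, lines 95% confidence intervals, filled where the adjusted p is under 0.05. tRNA genes reach 3.05 (mt-Ts2), and mt-Co3 is lowest at -1.80.

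Ratios within a library showed the same contrast without any scaling between libraries. Per length, mt-Rnr1 stood at 1.23 ± 0.0522 (SD, n = 24) times mt-Rnr2 in the first set, from 1.13 to 1.32, and at 1.05 ± 0.0157 (SD, n = 6) in the second, from 1.03 to 1.07. The tRNA genes made up 1.21% ± 0.149 of the members' CPM in the first set and 2.11% ± 0.0887 in the second. The rRNA genes made up 14.7% and 15.5%.

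Nuclear respiratory subunits moved in the direction of the mitochondrial protein genes, with 3 of 79 gene identifiers higher and 67 lower in the second set, beside 16.5% and 15.8% of all genes. Mitochondrial ribosomal protein genes had 2 of 82 higher, a smaller share than that of all genes, and 52 lower, a larger one. Of the genes acting on mitochondrial DNA and RNA, 10 of 107 were higher and 15 lower. For that list both shares were smaller than those of all genes.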

How the data were processed

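RNA-seq counts and FPKM were analysed for 30 libraries. Per the submitters' processing notes, reads were handled with Trim Galore, HISAT2, SAMtools and featureCounts on mm10; the sources used here do not give versions, annotation release, strand setting or the treatment of multiply matching reads. The deposited counts are whole reads per gene, not normalized. The deposited FPKM are the same genes' values per kilobase and per M counts, and served for levels between genes only.

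Identifiers were named from GENCODE M21 (54349 exact matches, 792 without the version, 260 unmatched). The members and all gene lists were chosen with earlier results of these data known. Genes kept by filterByExpr (23736, with 99.9% of counts; minimum count 10) were scaled with TMM factors. They were fitted with edgeR 4.0.16 (robust quasi-likelihood, 1 term per group and 1 for the library set; R 4.3.3), and the Benjamini-Hochberg adjustment covered all genes tested, at a threshold of 0.05. CPM are TMM-scaled. Fits with DESeq2 1.42.0 and limma-voom 3.58.1 and other scalings, filters, sets and left-out libraries were alternatives. The second set was read from depth and replicate number, as no label names a batch. No 2 replicates of a group agreed within sampling noise (lowest chi-square per degree of freedom 6.89). Each library is 1 animal, per the labels.

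In simulated counts for desipramine against saline in SNI mice over 23607 genes, 86% of 200 genes changed by 1 on the log2 scale were recovered. Of the genes called there, 6.01% were false. The 200 genes were drawn above a minimum mean count, and smaller changes, such as the medians of the members, were not simulated. Chromosome 1 copies were found with blastn 2.17.0 (word size 16, at least 90% identity) among transcripts. The text names every member, every model of the chromosome 1 stretch, up to 3 genes of the smallest p per list and comparison, and Tfam, Polrmt, Lrpprc, Elac2, Mtpap and Ppargc1a.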

Additional observations from a re-analysis of the deposited data

Results flagged for a closer look

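In 102 groups of 4 to 6 libraries looked at, a single library lay farther from its group than Dixon's limit in 14. Chance alone flags about 1 in 20 groups, and the groups share libraries and neighbouring genes, so the flags are not independent. 3 of them belong to sham saline replicate 2. Its tRNA gene share was 0.00732% against 0.0213% to 0.0254% in the rest of the group, its mt-Te level 14.6 CPM against 46.0 to 58.6, and its mt-Tp level 1.53 CPM against 24.3 to 31.5. 5 belong to SNI saline replicate 5, the group's only library of the second set, which was above the others in each. It read 4.93 CPM for mt-Th (others 0.692 to 1.43), 3.70 for mt-Ts2 (0.180 to 0.571) and 6.01 for mt-Tl2 (0.451 to 1.21). It read 9.50 CPM for mt-Tg (2.62 to 3.50) and 15.5 for mt-Tc (4.58 to 7.71).

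SNI desipramine replicate 4 was above its group in mt-Tg, at 6.84 CPM against 4.35 to 4.60, and in mt-Te, at 68.2 CPM against 52.0 to 53.2. Sham desipramine replicate 3 was below its group in mt-Nd6, at 517.7 CPM against 602 to 618, and in mt-Co3, at 32.7 CPM against 42.5 to 43.6. Sham desipramine replicate 1 was above its group in mt-Tc, at 12.2 CPM against 4.79 to 5.62. Sham tianeptine replicate 4 was above its group in mt-Nd6, at 767.6 CPM against 486 to 576.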

How the results depend on the processing

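Over 12 surgery and drug comparisons and 41 alternatives, 491 of 492 counts of members called were 0, and 1 was 1. That was SNI against sham on desipramine without sham saline replicate 2, where mt-Rnr2 passed, so leaving out single libraries gave 0 to 1 calls; the cause was not tested. Between the library sets, 26 to 34 members were called. The rRNA gene share in SNI desipramine moved from 0.288% to 0.293% with the members' counts left out of the total, by construction, and the other 191 of 192 recomputed shares moved by less than the group's SD. Levels per length from counts were within 0.1% of the deposited FPKM for all 37 members.

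With the replicate number as a block in place of the set term, 0 members were called in every one of the 12 comparisons. For mt-Rnr2 in desipramine against saline in SNI mice this block gave 0.28 (adjusted p = 0.29 by edgeR). The numbers did not pair the libraries: 16 of 60 same-numbered pairs correlated above 0.1 (median -0.01), and 3 of 24 libraries correlated best with their own number.

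For desipramine in SNI mice, the median of the members was 0.23 to 0.33 over single left-out libraries. The count at an unadjusted p under 0.05, 10 with all libraries, was 19 without sham saline replicate 2 and 1 without a set term. It was 6, 4 and 4 without SNI saline replicates 2, 3 and 4, and 6 and 3 without SNI desipramine replicates 2 and 4. A tRNA gene such as mt-Ts2 had as few as 3 counts in a library, which limits its precision.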
